A study of Mus musculus and synthetic construct with 3 samples.

Results

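The 9 complement genes described here were followed in aneurysmal and normal mouse aortas profiled by Seq-Scope, a method in which a barcoded array records where in a section each RNA molecule was caught. They were chosen by symbol, C1qa, C1qb, C1qc, C1ra, C1s1, C4b, C3, Cfb and Serping1, and all 9 were found among the 32285 genes of the deposited matrix. The 3 abdominal aortic aneurysm (AAA) mice were male Apoe-/- animals on a normal diet that received angiotensin II (AngII) by minipump for 4 weeks and developed an aneurysm, out of 5 infused. The 3 control mice were male Apoe-/- animals on the same diet with saline pumps, taken from 5, so that both groups lacked apolipoprotein E. The labels give an age of 16 weeks and AngII at 1000 ng/ml, whereas the study's methods give 12 weeks at implantation and a dose per body weight per minute. Suprarenal aortas were embedded in pairs of 1 AAA and 1 control aorta, and 10 sections of each group shared a single array lane (lane 2) and a single matrix made from 2 libraries. Which section belonged to which mouse came from the study's own section map, not from sample labels.

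Complement is a cascade of plasma proteins that marks cells and debris for removal and attracts leukocytes. In the classical pathway, C1q binds an immune complex or a dying cell, its protease C1r activates C1s, and C1s cleaves C4 and C2. The resulting enzyme cleaves C3, the point where all complement pathways meet. Factor B amplifies C3 cleavage in the alternative pathway, and C1 inhibitor (Serping1) stops C1r and C1s. Most circulating C3, C4 and factor B come from hepatocytes, while tissue macrophages are a main source of C1q, and fibroblasts and adipocytes can also express C3 and C4.

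The unit of measurement was the exonic UMI (a unique molecular identifier, 1 per captured molecule), summed over hexagons with 12 µm sides and 75 or more genes. AAA mice 1, 2 and 3 had 2639, 899 and 875 such hexagons with 333822, 109887 and 95207 UMIs, against 272, 114 and 96 hexagons with 33306, 12225 and 9579 UMIs in control mice 1, 2 and 3. A hexagon held a median of 100 to 110 UMIs in AAA mice and 96 to 109 in control mice. Levels are given as counts per 1000000 UMIs (CPM), and a single UMI was thus worth far more CPM in a control mouse than in an AAA mouse. In control mice every complement gene other than C3 rested on 0 to 8 UMIs per mouse. The smooth muscle markers expected of an aorta were present, with UMIs for 11 of 11 genes in both groups. Their summed level was 8500 to 14169 CPM in AAA mice and 24350 to 31319 CPM in control mice.

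The question asked first was whether complement transcripts were more abundant per UMI in the aneurysmal wall. C1qb, C1qc, C4b and C3 were higher in AAA than in control mice, by 1.84-fold for C3 to 3.67-fold for C4b, and no complement gene was lower. These 4 of the 8 genes that could be tested passed an adjusted p of 0.05 (edgeR quasi-likelihood test, Benjamini-Hochberg over 1187 genes), where 1.94% of all tested genes passed as higher and 3.37% as lower. The median log2 fold change was 1.03 over the 8 complement genes and 0.03 over all tested genes. The count filter asks for a level reached in at least 3 mice. C1qb, C1qc, C1s1, C4b, Cfb and Serping1 met it in the AAA mice and not in the 3 control mice. They thus entered the test through the AAA mice, and the counts and medians here are descriptions. Without the filter the medians were 1.78 over the 9 complement genes and 1.34 over all genes. Among the 8 tested genes, all AAA mice lay above all control mice for C1qa, C1qb, C1qc and C4b, against 12.8% of the 1187 tested genes. For C1s1, C3, Cfb and Serping1 the groups overlapped. C1ra, too low to be tested, also did not overlap, but on 1, 1 and 0 control UMIs. Its groups overlapped without a gene minimum. The folds moved when sparser hexagons were let in, and those of C4b, C1qb and C1qc were smaller at both lower minimums. At 50 or more genes per hexagon C4b had a log2 fold change of 1.23 (edgeR, adjusted p = 0.0119), C1qc 1.24 (0.00401), C1qb 1.29 (0.0202) and C3 0.97 (0.00401), and without a gene minimum they had 0.78 (0.000228), 0.87 (1.84e-05), 0.53 (0.046) and 0.63 (0.000251). These 4 genes and C1qa passed in both, where 1.44% and 1.27% of all genes were higher.

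The 3 genes of the C1q chains lie side by side on chromosome 4 in mouse build GRCm38, all on the minus strand: C1qb at 136880129 to 136886187, C1qc at 136889804 to 136893065 and C1qa at 136895917 to 136898803. C1qc had 680, 564 and 809 CPM in the AAA mice, against 240, 81.8 and 313 CPM in the control mice. The groups did not overlap, and the log2 fold change was 1.64 ± 0.38 (SE, adjusted p = 0.00978). C1qb had 440, 510 and 420 CPM in the AAA mice and 120, 164 and 104 CPM in the control mice, a log2 fold change of 1.82 ± 0.44 (edgeR, adjusted p = 0.0116). Here too the groups did not overlap, though the control values stood on 4, 2 and 1 UMIs, and without control mouse 1 the call was lost (adjusted p = 0.153, edgeR). C1qa had 488, 501 and 462 CPM in the AAA mice and 240, 245 and 209 CPM in the control mice. All AAA values were higher, but the log2 fold change of 1.03 ± 0.36 did not pass in edgeR (adjusted p = 0.107). It passed at 50 or more genes per hexagon (log2 1.34, edgeR adjusted p = 0.00647) and without a gene minimum (log2 0.81, edgeR adjusted p = 0.000313). Within a group, the C1qa values differed less between mice than those of C1qc.

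The sequence before the transcription start is shown for C1qb, C1qc and C3, which all passed as higher in AAA mice. Each line is the 250 bases before the start of a RefSeq transcript (GRCm38.p6), read 5′ to 3′ along the gene. For C1qc this stretch lies partly inside the gene bounds given above. Capitals mark GAGGAA on either strand (TTCCTC on the other), the core bound by PU.1 and other ETS factors, and TTGCGNAA on either strand (TTNCGCAA on the other), a form of the sequence bound by C/EBP factors.
C1qb (chr4:136886201-136886450, minus strand): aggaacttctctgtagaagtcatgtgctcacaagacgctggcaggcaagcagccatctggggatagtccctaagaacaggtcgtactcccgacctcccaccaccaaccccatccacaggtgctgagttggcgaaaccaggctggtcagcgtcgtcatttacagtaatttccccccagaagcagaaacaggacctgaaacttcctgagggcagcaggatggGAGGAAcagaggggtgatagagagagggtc
C1qc (chr4:136892915-136893164, minus strand): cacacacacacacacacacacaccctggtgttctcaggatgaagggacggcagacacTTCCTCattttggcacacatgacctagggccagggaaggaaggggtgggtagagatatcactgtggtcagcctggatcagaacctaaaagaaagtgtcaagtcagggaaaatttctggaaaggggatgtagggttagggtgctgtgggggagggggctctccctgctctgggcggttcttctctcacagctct
C3 (chr17:57228137-57228386, minus strand): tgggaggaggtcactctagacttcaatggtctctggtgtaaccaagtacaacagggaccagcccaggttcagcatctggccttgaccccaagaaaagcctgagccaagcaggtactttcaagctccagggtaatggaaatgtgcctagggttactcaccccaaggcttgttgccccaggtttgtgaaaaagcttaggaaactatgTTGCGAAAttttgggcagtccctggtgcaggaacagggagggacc
C1qb and C1qc each held 1 GAGGAA core and no TTGCGNAA, while C3 held 1 TTGCGNAA and no GAGGAA. The first was found in 23.1% of 27025 promoters of the same length and the second in 0.67%. The marked letters did not overlap, and they describe the sequence only. Promoters of 5 of the 9 genes were in the table used, and of these only C1qb, C1qc and C3 are shown. C1qa was not in the table.

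C1ra and C1s1 encode the proteases C1r and C1s. They lie near each other on chromosome 6, C1ra at 124512405 to 124523443 on the plus strand and C1s1 at 124530345 to 124542359 on the minus strand. C1ra had 126, 127 and 126 CPM in the AAA mice, against 30, 81.8 and 0 CPM in the control mice. The 0 of control mouse 3 allows up to 313 CPM (3 UMIs, counting error only), more than any AAA value, and C1ra was too low to be tested. C1s1 had 341, 410 and 294 CPM in the AAA mice, against 150, 81.8 and 731 CPM in the control mice. Control mouse 3 had the highest C1s1 value of all, from 7 UMIs, and the log2 fold change of 0.54 ± 0.47 did not pass (edgeR, adjusted p = 0.611). Both genes have a close copy (C1rb and C1s2), and C1s1 overlaps an antisense gene model, so reads may have been split or lost in counting.

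C4b, which encodes complement C4, lies on chromosome 17 at 34728380 to 34743882, minus strand. Its levels were 1054, 764 and 441 CPM in the AAA mice and 240, 245 and 104 CPM in the control mice. Every AAA mouse was above every control mouse, but AAA mouse 1 was more than 2 times AAA mouse 3. The log2 fold change was 1.88 ± 0.46 (edgeR, adjusted p = 0.0124), and 1.49 without AAA mouse 1 (adjusted p = 0.0515). C4b has a near-identical neighbour, C4a, and reads shared by both are uncertain.

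C3, also on chromosome 17 at 57203970 to 57228136 on the minus strand, was the complement gene with the most UMIs, 1515 in AAA mice and 77 in control mice. It had 3130, 2721 and 1796 CPM in the AAA mice, against 1351, 1800 and 1044 CPM in the control mice. The lowest AAA mouse and the highest control mouse had nearly the same level, so the groups overlapped. The log2 fold change of 0.88 ± 0.25 passed the test (edgeR, adjusted p = 0.0327). It did not pass without AAA mouse 1 (log2 0.70, adjusted p = 0.151) or without control mouse 3 (log2 0.86, adjusted p = 0.0594). By section, C3 ran from 1429 over a median of 2235 to 3606 CPM in the 10 AAA sections and from 0 over 1276 to 2250 CPM in the 10 control sections. Control sections held as few as 424 UMIs, where a single UMI is a large step.

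Cfb, the gene of factor B on chromosome 17 at 34856374 to 34862518 on the minus strand, had 458, 373 and 515 CPM in the AAA mice, against 150, 409 and 209 CPM in the control mice. The log2 fold change was 1.03 ± 0.41 (edgeR, adjusted p = 0.174). Serping1, the gene of C1 inhibitor on chromosome 2 at 84765387 to 84775444 on the minus strand, had 339, 282 and 294 CPM in the AAA mice and 150, 327 and 209 CPM in the control mice, with a log2 fold change of 0.64 ± 0.43 (edgeR, adjusted p = 0.47). In both genes control mouse 2 lay within the AAA range. Cfb shares its strand with an overlapping gene model.

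**Figure D1:**
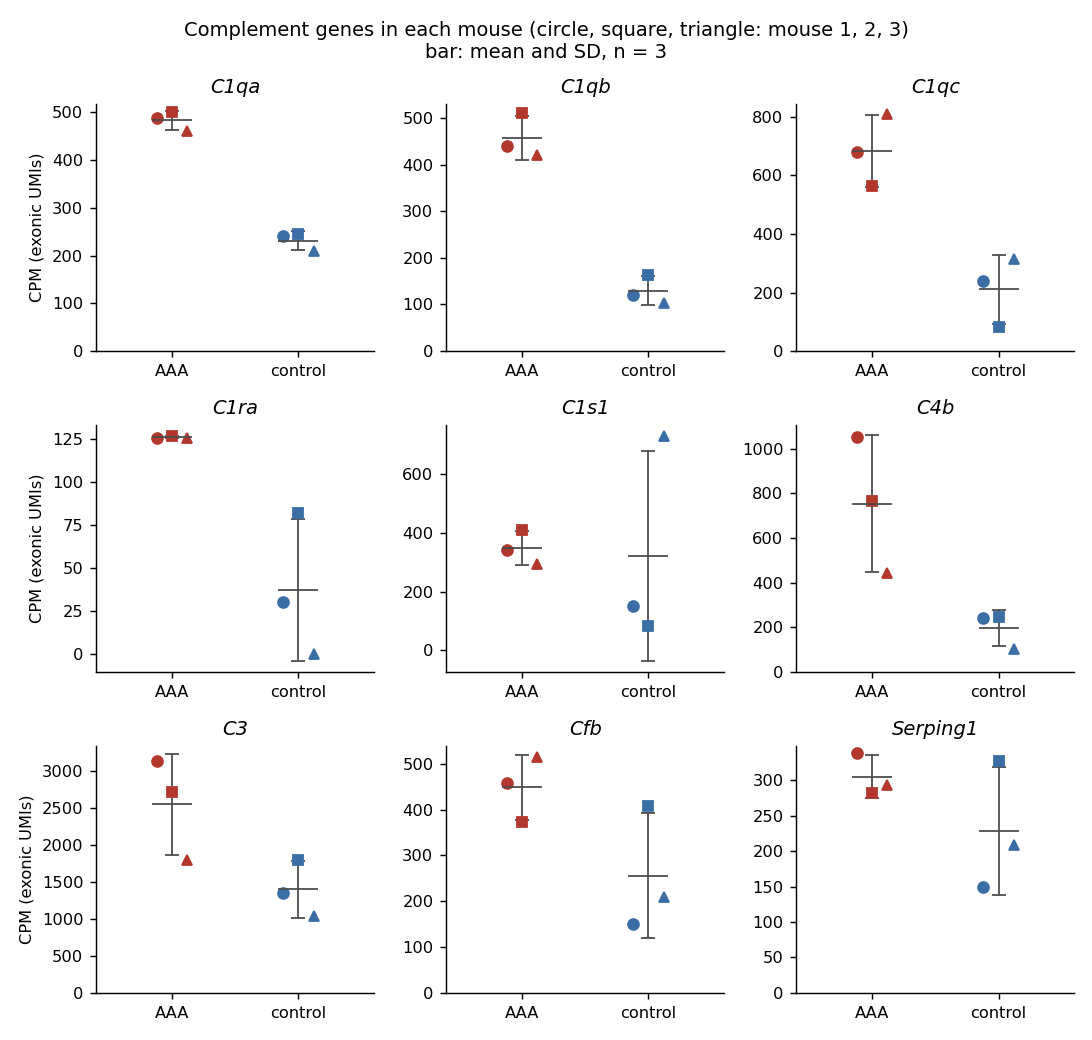
CPM of exonic UMIs (y axis) of each complement gene in the 3 AAA and 3 control mice, with mean and SD. The AAA mice lie above all control mice for C1qa, C1qb, C1qc, C1ra and C4b.

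Counting UMIs over whole genes, introns included, raised the totals to between 634450 and 1596456 UMIs in AAA mice and between 185608 and 237650 in control mice. The minimum of 75 genes was then met by 3930 to 9646 hexagons in AAA mice and 1283 to 1522 in control mice, so the counts and the hexagons changed together. All 9 genes could then be tested, and 8 of them, all but C1ra, were higher in AAA (edgeR, 1.52% of 10054 tested genes higher). C1qa, which had not passed with exonic UMIs at 75 genes per hexagon, averaged 180.1 ± 7.69 CPM in AAA mice and 69.3 ± 20.2 CPM in control mice (SD, n = 3 each). Its log2 fold change was 1.36 ± 0.22 (edgeR, adjusted p = 3.71e-05). C3 averaged 947.9 ± 234.2 CPM in AAA mice and 442.0 ± 38.1 CPM in control mice, and its groups no longer overlapped (log2 1.11 ± 0.14, edgeR adjusted p = 1.38e-07). Serping1 and Cfb changed least among the 8, by log2 0.62 and 0.78 (edgeR adjusted p = 0.0284 and 0.0369). C1ra had a log2 fold change of 0.44 ± 0.36 (edgeR, adjusted p = 0.682). DESeq2 on exonic UMIs passed 1 gene, C1qc (adjusted p = 0.0313), where 0.927% of all genes passed as higher. It gave adjusted p of 0.0574 for C1qb, 0.0539 for C4b and 0.173 for C3.

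**Figure D2:**
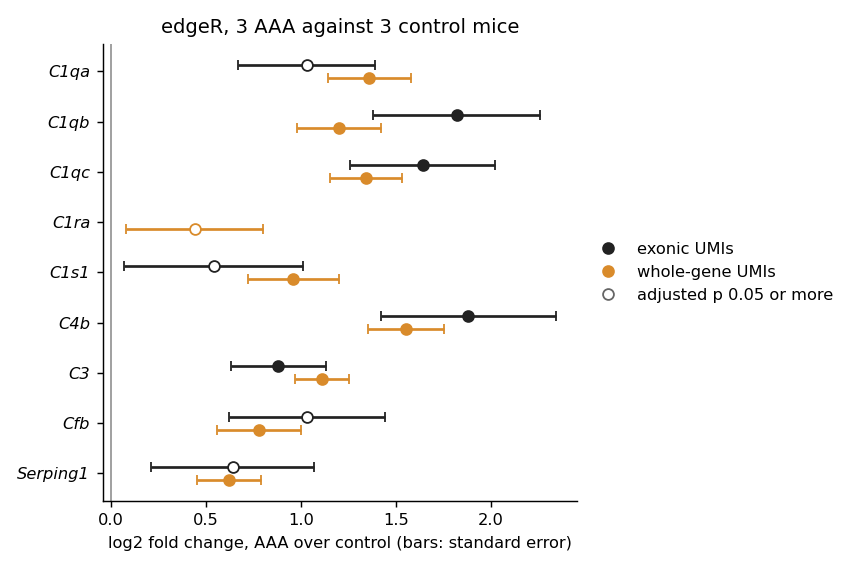
Log2 fold change of AAA over control (x axis, bars are standard errors) of each complement gene with exonic and with whole-gene UMIs, filled where the adjusted p was below 0.05. All 17 values lie above 0, and C1ra is shown only for whole-gene UMIs.

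The macrophage and collagen lists of cell markers moved with these genes, and the adipocyte list did not. The adipocyte list was at 5220 to 5888 CPM in AAA mice and 4385 to 9638 CPM in control mice. The summed macrophage list (16 of 16 genes with UMIs in both groups) was at 3733 to 4696 CPM in AAA mice and 1253 to 2454 CPM in control mice. The collagen list (12 of 12) was at 14906 to 20145 CPM in AAA mice and 8352 to 9728 CPM in control mice. Their part in the differences was not tested. In a section, more cells of a type and more RNA per cell cannot be told apart. The hepatocyte list, which an aorta should lack, had UMIs for 17 of 17 genes in both groups, at 24736 to 27173 CPM in AAA mice and 21408 to 30920 CPM in control mice, and these ranges overlapped. Leaving out hexagons with a hepatocyte UMI cut the genes that could be tested from 1187 to 27, with C3 the only complement gene among them. C3 then had a log2 fold change of 0.06 ± 0.56 (edgeR, adjusted p = 0.952). So few counts remained that this value cannot be set against the main one. The part of hepatocyte RNA was not tested.

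Complement UMIs were also found between the sections of lane 2. With all hexagons counted alike, without a gene minimum, C3 made up 1992 CPM in AAA mice, 1271 CPM in control mice and 1521 CPM in the area outside the sections. Per 1000 hexagons this was 44.4, 14.9 and 7.94 C3 UMIs. The pooled AAA level exceeded the outside level for all 9 genes, with ratios from 1.02 for C1qa to 2.04 for Serping1, and in all 3 mice for 8 of them. For C1qa this was nearly a tie in AAA mouse 3, at 385.7 CPM against 386 CPM outside. For C3, AAA mouse 3 was at 1495 CPM, below the outside level. The control level was below the outside level for 7 of the 9, with ratios from 0.593 for C1qa to 0.96 for C1ra, and above it for C1s1 (1.04) and Serping1 (1.64). These counts were not made over all genes, so no share over all genes can be set beside them. The part of free or displaced RNA in these values was not tested.

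The next question was where in the aneurysmal wall the genes lay. Hexagons were sorted by UMIs of marker lists that hold no complement gene: macrophage hexagons had 2 or more macrophage UMIs, and collagen and smooth muscle hexagons had no macrophage UMI, 3 or more UMIs of their own list and more of it than of the other. AAA mice 1, 2 and 3 had 248, 102 and 91 macrophage, 493, 127 and 149 collagen and 204, 37 and 100 smooth muscle hexagons. A hexagon can hold several cells, and 164 of the 441 macrophage hexagons also had 3 or more collagen UMIs. Control mice had 9, 3 and 0 macrophage and 9, 4 and 2 collagen hexagons, too few to compare. CPM by class were computed without the class genes. Several list genes are also markers of the study's own clusters of these data. Among its cluster markers the study already listed C1qc for Gpnmb macrophages, C3 for collagen fibroblasts and C4b for adipose tissue. The levels by class are thus not independent of that earlier result.

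By mean CPM, C1qc had the highest ratio of macrophage to collagen hexagons among the complement genes and C3 the lowest, but neither passed with the main settings. C1qc had 1278, 661 and 1047 CPM in the macrophage hexagons of AAA mice 1, 2 and 3, against 507, 609 and 381 CPM in their collagen hexagons. It was higher in macrophage hexagons in 3 of 3 mice, though by little in AAA mouse 2, and fell under the count filter of the main fit. Collagen hexagons held no macrophage UMI by definition, so the rule itself bears on this comparison. Unclassed hexagons had 714, 601 and 1112 CPM of C1qc, more than macrophage hexagons in AAA mouse 3. In the alternatives that could test C1qc, its log2 fold change ran from 0.77 to 1.53. It passed in 6 of them, among them whole-gene UMIs (1.04 ± 0.28, edgeR adjusted p = 0.0181, with 1.05% of 1235 genes higher) and 3 or more macrophage UMIs (1.53 ± 0.41, edgeR adjusted p = 0.0169). C1qa and C1qb were less separated. C1qa had 887, 588 and 856 CPM in macrophage hexagons and 605, 609 and 763 CPM in collagen hexagons (log2 0.34 ± 0.37, edgeR adjusted p = 0.706), with AAA mouse 2 the other way round. C1qb had 887, 808 and 285 CPM in macrophage hexagons and 622, 609 and 318 CPM in collagen hexagons, on 3 to 38 UMIs each.

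C3 had 3470, 2351 and 951 CPM in macrophage hexagons and 4762, 3653 and 1970 CPM in collagen hexagons. It was lower in macrophage hexagons in every AAA mouse, and the ranges of the classes overlapped because the mice differed. The log2 fold change was -0.56 ± 0.19 (edgeR, adjusted p = 0.0869). With macrophage hexagons that also held collagen left out it was -0.86 ± 0.24 (edgeR, adjusted p = 0.00766). C4b had 1070, 808 and 476 CPM in macrophage hexagons and 1309, 1157 and 572 CPM in collagen hexagons, again lower in 3 of 3 mice (log2 -0.34 ± 0.28, edgeR adjusted p = 0.605). At 3 or more macrophage UMIs it was lower by log2 -1.56 ± 0.48 (edgeR, adjusted p = 0.0481). Those macrophage hexagons held only 9 C4b UMIs, with 0 CPM in AAA mouse 3. Among the 4 complement genes that the main fit could test, 0 passed, 1 (C3) had an unadjusted p below 0.05, and DESeq2 passed 0. Of all 249 tested genes, 3.21% were higher and 0.402% lower in macrophage hexagons.

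In the proportion of C1q to C3 UMIs the total UMIs of a class cancel, but the mouse's own C1q and C3 levels do not. Over all kept hexagons it was 0.514, 0.579 and 0.942 in AAA mice 1, 2 and 3. Macrophage hexagons held 0.88, 0.875 and 2.3 UMIs of the summed C1q genes per C3 UMI in AAA mice 1, 2 and 3, against 0.364, 0.5 and 0.742 in collagen hexagons. The ratio was higher in macrophage hexagons in 3 of 3 mice, though the 2.3 of AAA mouse 3 rests on 23 C1q and 10 C3 UMIs. The ratio is a description and was given no test.

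**Figure D3:**
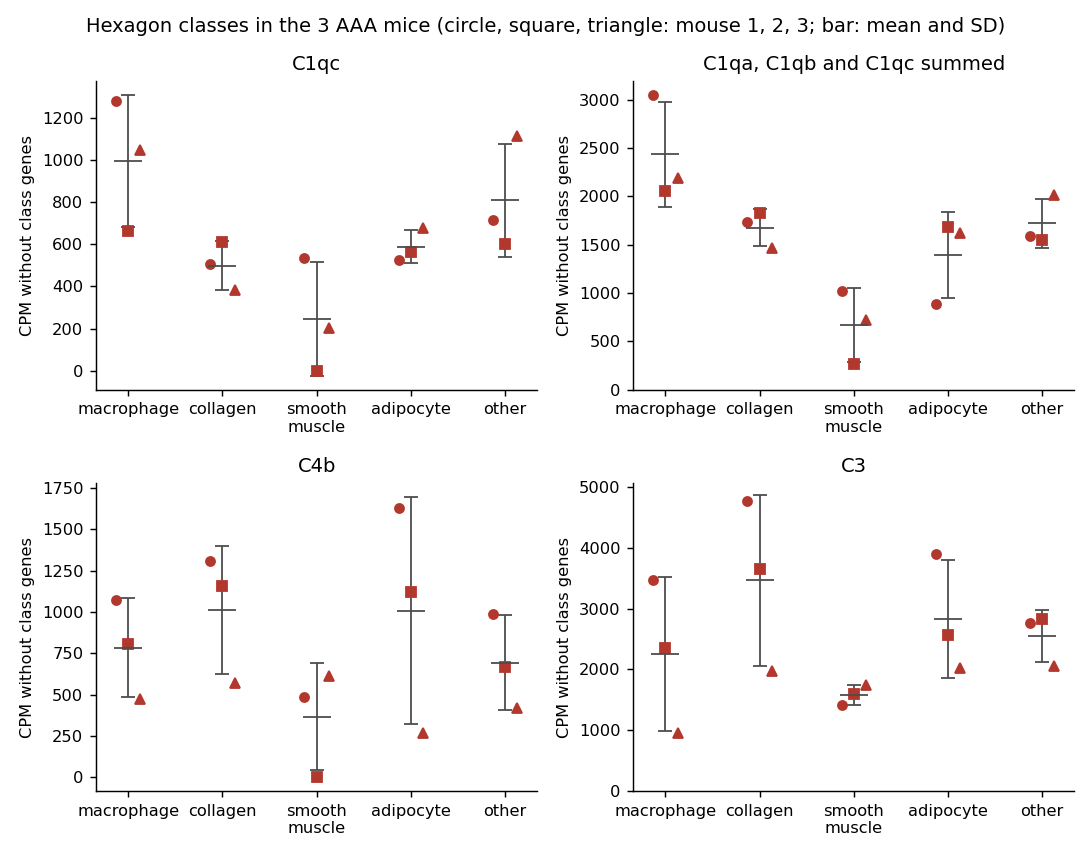
CPM without class genes (y axis) of C1qc, of the 3 C1q genes summed, of C4b and of C3 in 5 hexagon classes of the AAA mice, 1 point per mouse with mean and SD. C1qc lies higher in macrophage than in collagen hexagons and C3 lower, in each of the 3 mice, and smooth muscle hexagons have the lowest mean in each panel.

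C3 and C4b were higher in collagen than in smooth muscle hexagons. C3 had 4762, 3653 and 1970 CPM in collagen hexagons and 1422, 1592 and 1742 CPM in smooth muscle hexagons, a log2 fold change of 1.22 ± 0.24 (edgeR, adjusted p = 5.22e-05). The excess was large in AAA mice 1 and 2 and small in AAA mouse 3. C4b had 1309, 1157 and 572 CPM in collagen hexagons and 489, 0 and 615 CPM in smooth muscle hexagons (log2 1.17 ± 0.38, edgeR adjusted p = 0.0442), and the 0, on 37 hexagons, allows up to 796 CPM. Both calls rested on AAA mouse 1: without it C3 had a log2 fold change of 0.54 (edgeR, adjusted p = 0.651) and C4b 0.74 (adjusted p = 0.729). C4b was also lost without AAA mouse 2 (edgeR, adjusted p = 0.264). These were 2 of 4 complement genes tested, where 2.81% of the 249 genes were higher and 4.02% lower in collagen hexagons. C1qa (log2 1.46 ± 0.58, edgeR adjusted p = 0.139) and Cfb (0.42 ± 0.49, adjusted p = 0.752) did not pass. The other 5 genes fell under the count filter.

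Adipocyte hexagons, with 2 or more adipocyte UMIs and no macrophage UMI, were given levels and no test. They had 3901, 2570 and 2025 CPM of C3 and 1632, 1124 and 270 CPM of C4b in AAA mice 1, 2 and 3. C3 in smooth muscle hexagons was lower than in adipocyte hexagons in each of these mice. Over the classes, 25.2% of the C3 UMIs of AAA mice lay in collagen hexagons, 12.4% in adipocyte and 11.6% in macrophage hexagons, and 47.2% in hexagons of none of the classes. For C1qc, 18.9% lay in macrophage and 12.8% in collagen hexagons, and 56.0% in unclassed hexagons. Of the UMIs of the AAA mice counted without the class genes, 18.0% lay in collagen, 10.8% in adipocyte, 12.1% in macrophage and 52.2% in unclassed hexagons.

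Levels were also followed along the number of marker UMIs in a hexagon. The summed C1q level in AAA mice averaged 1476 ± 111 CPM in hexagons without a macrophage UMI, 1912 ± 411 with 1, 2093 ± 695 with 2 and 2923 ± 506 with 3 or more (SD, n = 3 mice). In AAA mouse 2 it was 1576, 1542 and 1438 CPM at 0, 1 and 2, and only 3 or more was higher, at 2852 CPM. Along the collagen axis the C1q sum averaged 1410 ± 145 CPM at 0 and 1720 ± 193 CPM at 5 or more, and C1qa 366 ± 48.9 and 747 ± 89.5 CPM, so C1qa was higher with collagen UMIs too. C4b had no steady direction along the macrophage axis. It averaged 802 ± 323 CPM at 0 macrophage UMIs, 731 ± 321 at 1, 1085 ± 329 at 2 and 312 ± 272 at 3 or more, the last from 9 UMIs. C3 averaged 1992 ± 318 CPM in hexagons without a collagen UMI and 3934 ± 1354 CPM at 5 or more. In each AAA mouse the C3 level was higher at 5 or more collagen UMIs than at 0, with 5237, 4029 and 2535 CPM at 5 or more against 2356, 1851 and 1769 CPM at 0. These levels are descriptions over hexagons of the same mice.

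**Figure D4:**
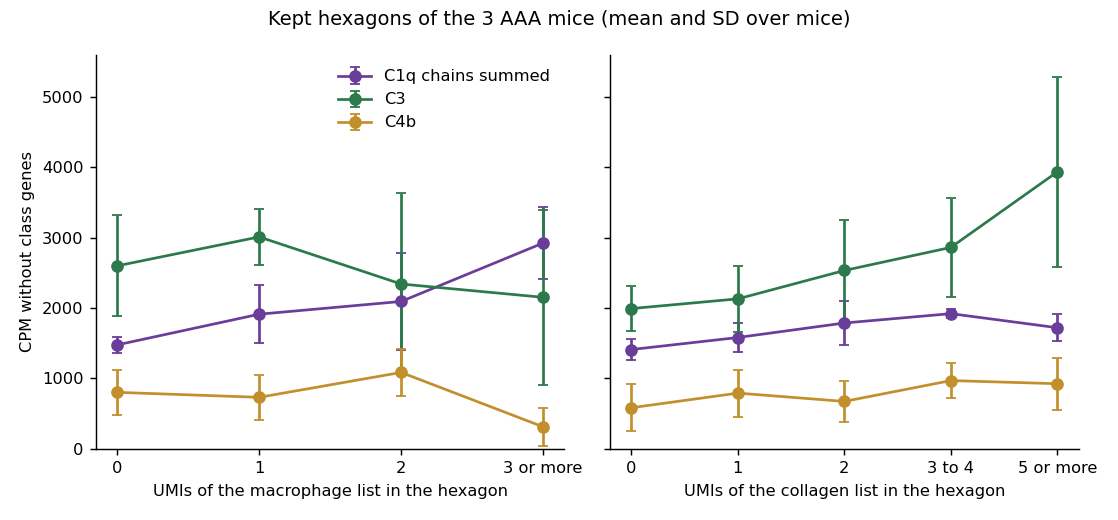
CPM without class genes (y axis, mean and SD over the 3 AAA mice) of the summed C1q genes, C3 and C4b against the number of macrophage-list UMIs (left) and collagen-list UMIs (right) in a hexagon. The C1q mean goes from 1476 to 2923 CPM along the macrophage axis, and the C3 mean from 1992 to 3934 CPM along the collagen axis.

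Macrophage hexagons with and without a UMI of Gpnmb, the gene of a glycoprotein of lipid-laden macrophages, both held C1q. The summed C1q level was 2430, 3623 and 1501 CPM with Gpnmb and 3294, 989 and 2737 CPM without it in AAA mice 1, 2 and 3. The order differed between mice, and the values rest on 7 to 91 UMIs. Hexagons other than macrophage hexagons were next split by whether a macrophage hexagon lay within 45 µm. C1qb had 483, 624 and 520 CPM near and 282, 269 and 407 CPM away in AAA mice 1, 2 and 3, higher near in 3 of 3 mice. Its log2 fold change of 0.77 ± 0.24 did not pass (edgeR, adjusted p = 0.28). C3 had 3395, 2496 and 1641 CPM near and 2813, 3202 and 2037 CPM away, with no common direction. Of the 8 complement genes tested 0 passed and 1, C1qb, had an unadjusted p below 0.05 in edgeR, where 0.201% of the 997 genes were higher and 0.1% lower near macrophage hexagons.

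**Figure D5:**
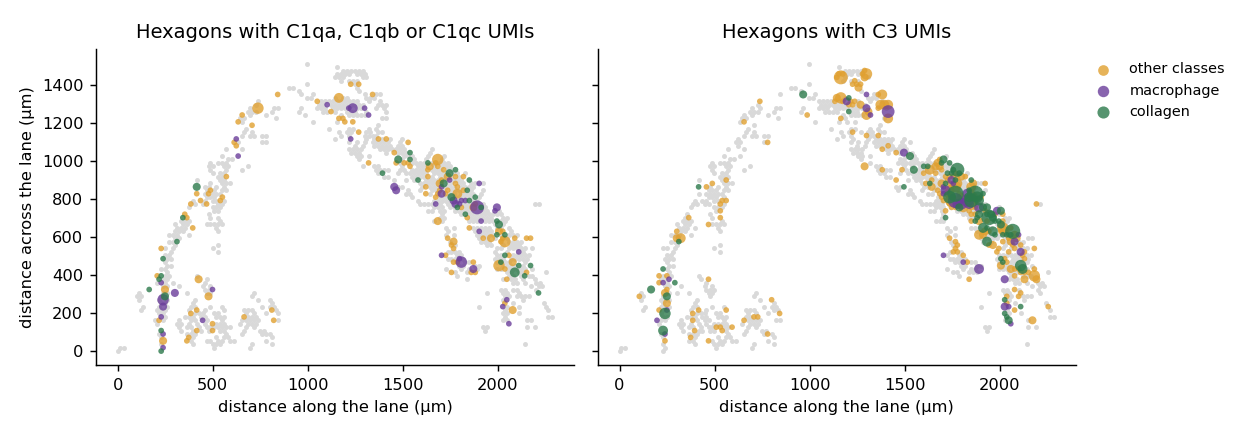
Kept hexagons of 1 section of AAA mouse 1 at their positions (µm), coloured by class where they held a C1q UMI (left) or a C3 UMI (right), with point area following the number of UMIs. Of 1052 hexagons, 194 held C1q, 306 held C3 and 77 held both, and many of the larger C3 points lie in collagen hexagons on the right flank of the wall.

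Whether the genes differed between AAA and control mice within one kind of hexagon could be asked of C3 alone with the main settings. In collagen hexagons it had a log2 fold change of 0.99 ± 0.62 (edgeR, adjusted p = 0.42), on 382 UMIs in AAA mice and 5 in control mice. The median of the 71 tested genes was itself at 0.68, and 8.45% of them, 6 genes, were higher, against 0 with the replicate block. In this fit 0 complement genes passed, also at an unadjusted p below 0.05. At 50 or more genes 2 complement genes could be tested, and 2 to 3 when a control mouse was left out, and 0 passed. In smooth muscle hexagons C3 had 55 UMIs of 36028 in AAA mice and 20 of 17503 in control mice. Of the 57 genes tested there, 5.26% were lower in AAA. No complement gene passed the count filter at 75 genes per hexagon, and at 50 or more genes C3 had a log2 fold change of 0.49 (edgeR, adjusted p = 0.706).

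Over 603 squares of 200 µm in the AAA sections, the genes whose levels followed the summed C1q genes most closely among 1238 genes were Ctsd (cathepsin D), Prdx1, Cd68 (a macrophage lysosomal protein), Col14a1 and Ppib, with Pearson r from 0.24 to 0.17. Those most like C3 were Fbln1 (fibulin 1), Ccl8 (a chemokine), Pi16, Cox4i1 and Slc1a5, with r from 0.24 to 0.21. C4b had r = 0.26 with C3, more than any of these, and r = 0.09 with C1q. C3 with the smooth muscle gene Acta2 had r = -0.27. All squares share a lane and differ in depth, the correlations are weak, and the median over all genes was 0.05 for C1q and 0.07 for C3. Squares of the 3 AAA mice were pooled without a mouse term. Both C3 and C4b were highest in AAA mouse 1 and lowest in AAA mouse 3. The part of differences between mice in these r values was not tested.

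Of 43 other complement genes, 6 could be tested between AAA and control mice with exonic UMIs and 0 passed in edgeR or DESeq2, with 1 and 0 at an unadjusted p below 0.05. Without a gene minimum 25 were tested, where 1.27% of all genes were higher. C3ar1 (log2 1.44, edgeR adjusted p = 0.00161), Itgax (1.6, 0.0207) and Cfp (1.26, 0.0381) then passed as higher. With whole-gene UMIs, 30 were tested and 3 were higher in AAA, where 1.52% of all genes were. C2, the partner of C4 in the classical pathway, was at log2 1.19 ± 0.25 (edgeR, adjusted p = 0.00237). Cfp, which encodes properdin, was at 2.15 ± 0.58 (edgeR, adjusted p = 0.0299). Cfd, which encodes factor D, made by adipocytes, was at 0.77 ± 0.14 (edgeR, adjusted p = 0.000266). Cfd was also higher in macrophage than in collagen hexagons (log2 1.08 ± 0.19, edgeR adjusted p = 4.58e-06), a call lost with DESeq2, without the mouse term, without AAA mouse 1 and without the low-count filter. Macrophage hexagons were allowed to hold adipocyte UMIs, whereas collagen hexagons had fewer than 2, so the rule itself bears on this gene. Near macrophage hexagons Cfd was lower than away from them (log2 -0.78 ± 0.16, edgeR adjusted p = 0.00144). That call was lost at 30 and 90 µm and in each fit that left out an AAA mouse.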

How the data were processed

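Seq-Scope RNA of 20 aortic sections (3 AAA and 3 control mice) was measured on 1 array. The authors deposited unnormalized UMI counts, made per the labels with STARsolo 2.7.5c on mm10, in 5 value columns, of which the exonic column was used and the whole-gene column served as an alternative. The 8551 genes whose names begin with mt or Gm were left out, and hexagons with 12 µm sides and 75 or more genes were kept (4895, mean 121.4 UMIs). Positions were scaled at 26.5 units per µm, inferred from the lane size in the labels. Sections were assigned to mice by their order in the study's section map. UMIs were summed per mouse, or per mouse and hexagon class, and compared by the quasi-likelihood test of edgeR 4.0.16 in R 4.3.3, after filterByExpr and TMM scaling, with Benjamini-Hochberg adjustment over all tested genes, with DESeq2 1.42.0 as an alternative. SE is the absolute log2 fold change over the square root of F. The fits were checked on simulated counts holding known changes. All 9 complement genes were named, other complement genes where they passed in at least 1 fit, and the 5 genes most alike over squares, by log2(CPM + 50) in squares of 1000 or more UMIs and for genes of 300 or more UMIs. The genes and lists were chosen with earlier results of these data known. The pair number marks an AAA and a control aorta embedded together, by the study's account. Deviations of same-numbered mice from their group means correlated at 0.0545, 0.0285 and 0.0786. How the counter treated strand and reads shared by close gene copies is not given in the sources used here. Lane 1 and tissue before the first section entered no comparison. Exonic totals of 9579 to 33306 UMIs per control mouse limit the precision of low genes. The limits given for 0 UMIs cover counting error only.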

Additional observations from a re-analysis of the deposited data

Results flagged for a closer look

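Lane 2 outside the sections held 4 complement genes above the level of every control mouse counted the same way, without a gene minimum per hexagon. C3 was at 1521 CPM there, against 1167 to 1437 CPM in the control mice. C4b was at 441 CPM against 323.5 to 421.9 CPM, C1qc at 405 CPM against 292.4 to 332.6 CPM, and C1qa at 386 CPM against 192.9 to 260.4 CPM. The AAA mice had 1495 to 2275 CPM of C3 and 385.7 to 409.2 CPM of C1qa by this count. How many of all genes lay above every control mouse outside the sections was not counted.

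Lane 1, which held no section of the comparisons, gave 742 UMIs of C1qb beside 183 of C1qa and 178 of C1qc. This is 4.05 C1qb UMIs per C1qa UMI, against 0.974 to 1.09 in the AAA mice and 0.74 to 1.77 in the control mice. The ratio was 0.787 in the tissue at the start of lane 2.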

How the results depend on the processing

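Between AAA and control mice, 4 complement genes passed, and 2 to 5 did when 1 mouse was left out (2 without AAA mouse 1). The fits without a mouse called 0.878% to 3.39% of all tested genes higher. DESeq2 passed 1 and UMIs over whole genes 8. Without hexagons holding hepatocyte UMIs only 27 genes were left to test, with C3 the only complement gene among them, and it did not pass. Without the low-count filter the median of all genes moved to a log2 fold change of 1.34. At 50 or more genes and without a gene minimum 5 passed each. With the replicate block, the same 4 genes passed, and the block changed no other call on a complement gene. Over all genes it gave 28 higher against 23 between mice, 0 against 6 in collagen hexagons, and 1 lower against 3 in smooth muscle hexagons. For macrophage against collagen hexagons, 0 passed with the main settings, 1 with whole-gene UMIs and 1 with 2 or more collagen or smooth muscle UMIs. Those alternatives called 1.05% and 2.28% of all genes higher. At 50 or more genes and with collagen-holding macrophage hexagons left out, C1qc and C3 passed, and at 3 or more macrophage UMIs C1qc and C4b, 2 each. Of all genes, 2.37% were higher and 1.48% lower at 50 or more genes. The shares were 3.63% and 2.02% without collagen-holding macrophage hexagons, and 3.83% and 0.851% at 3 or more macrophage UMIs. Leaving out 1 mouse gave 0 to 1, where 1.23% to 4.12% of all genes were higher. For collagen against smooth muscle hexagons, 2 passed, and 0 to 2 when a mouse was left out, where 0.515% to 1.84% of all genes were higher.

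Near macrophage hexagons, log2 values close to 0 changed sign. At 90 µm C1qc was 0.07 and C3 0.11, and at 30 µm Serping1 was 0.17. Leaving out 1 AAA mouse gave -0.16 to 0.11 for C1qc, -0.34 to 0.03 for C3, -0.37 to 0.19 for Serping1 and -0.29 to 0.13 for C1s1. The causes were not tested. Of the other values by gene, 193 kept direction and call, 13 gained a call and 11 lost one. In collagen hexagons, leaving out an AAA mouse left 2 genes to test and no complement gene. Of other complement genes, Cd93 passed between mice without the low-count filter and without control mouse 2, Cfd also without that filter and without control mouse 1, and Clu at 5 or more collagen or smooth muscle UMIs (log2 1.27 for macrophage over collagen and -1.79 for collagen over smooth muscle hexagons, edgeR adjusted p = 0.0413 and 0.0287). Depth limits all complement genes in control mice, C3 least, with 45, 22 and 10 UMIs in control mice 1, 2 and 3.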
